A study of Homo sapiens with 6 samples.

Results

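The TGF-beta ligands, receptors and SMADs were followed as 10 genes, namely the ligands TGFB1, TGFB2 and TGFB3, the receptors TGFBR1 and TGFBR2, the transducers SMAD2, SMAD3 and SMAD4, the inhibitor SMAD7 and the TGF-beta-induced matrix protein TGFBI. Every probe set annotated to exactly 1 of these genes was taken, which gave 31 of the 54675 probe sets on the array. The 10 genes are among 19775 that the annotation gives a probe set of their own. The cells were L428, an established Hodgkin lymphoma cell line, nucleofected with a locked nucleic acid (LNA) that inhibits miR-9 (3 arrays) or with a scrambled LNA (3 arrays). Total RNA was collected at 9 h and read on Affymetrix HG-U133 Plus 2.0 arrays. Both groups received an LNA and the same nucleofection, and no untreated cells are among these arrays. Replicates are numbered in the labels, but nothing there calls them separate cultures. The p-values therefore cover only the spread between these samples, which may be technical. In RNA of whole cultures, fewer cells making an mRNA and less of it per cell cannot be told apart.

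TGF-beta ligands are secreted in a latent form and, once released, bind TGFBR2, a kinase that then activates the kinase TGFBR1. TGFBR1 phosphorylates SMAD2 and SMAD3, which join SMAD4 in the nucleus and switch target genes on or off, among them SMAD7, whose product shuts the receptor down again. In B cells the pathway is known for restraining growth, and TGFB1 is a known product of Hodgkin and Reed-Sternberg cells, where it is associated with fibrosis and immune suppression.

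The microRNA blocked in these cells is shown because its seed, bases 2 to 8, is the part that pairs with target mRNAs. It is encoded at 3 loci, MIR9-1 on chromosome 1, MIR9-2 on chromosome 5 and MIR9-3 on chromosome 15. Seeds are in capitals in the mature sequences below, which come from RefSeq (GRCh38.p14), written 5′ to 3′.
hsa-miR-9-5p: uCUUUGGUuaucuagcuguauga
hsa-miR-9-3p: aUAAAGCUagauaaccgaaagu
The 3 loci give the same 5p sequence of 23 bases and the same 3p sequence of 22 bases. At the MIR9-1 locus the 5p arm lies at chr1:156420392-156420414 on the minus strand. Among 2370 mature human names in the RefSeq table, the 5p seed and the 3p seed each occur under 1 name. The labels do not say which arm the LNA pairs with, and sites for these seeds in the mRNAs of the 10 genes were not analysed here.

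Levels are the deposited log2 RMA values and differences are on the log2 scale, miR-9 LNA minus scrambled LNA. An error of a group mean is an SD and an error of a difference a standard error from limma, with n = 3 arrays per group throughout, and precision is limited by that number of arrays. A probe set was tested when its mean over the 6 arrays reached 7.11, the median of all probe sets without controls, and was otherwise read from a fit without that filter. By this rule 16 of the 31 probe sets were tested, covering 7 genes, while all probe sets of TGFB2, SMAD3 and TGFBI lay below it.

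Scrambled replicate 1 stood apart from the other 5 arrays. Its 90th percentile was 9.28, against 9.45 to 9.57 elsewhere, and the added bacterial control RNA dap read 10.05 on it and 7.97 to 8.55 on the others. Bright probe sets were mostly higher under the miR-9 LNA across the array. With the tested probe sets split by mean level into 5 bins of equal size, the median difference from the dimmest bin to the brightest was -0.03, -0.005, 0.06, 0.14 and 0.19. After quantile normalization these medians lay between -0.007 and 0.02. Results are therefore also given after quantile normalization and without scrambled replicate 1, and the part that this array or the shared shift plays in them was not tested otherwise. The cells carried the Hodgkin markers TNFRSF8, CCL17, FSCN1, TRAF1, BATF3 and JUNB at mean levels of 10.05 to 12.70. The B cell markers measured (MS4A1, CD79B, PAX5), and those of T cells and monocytes, lay between 6.71 and 7.44, and those of fibroblasts and endothelium between 6.65 and 7.45 except COL1A1 at 8.16.

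No member passed the threshold, an adjusted p under 0.05. SMAD2, the transducer phosphorylated by the activated receptor, was higher under the miR-9 LNA at 5 of 6 probe sets, by 1.10- to 1.28-fold at those 5. At the level of its brightest probe sets 95.3% of probe sets had a difference above 0, with a median of 0.19. After quantile normalization the differences at those 5 were 0.07 to 0.17. TGFB1 at its brighter probe set was lower under the miR-9 LNA, by 1.21-fold, at a level where 86.4% of probe sets had a difference above 0. The receptor TGFBR1 was higher in every same-numbered pair of arrays at 2 of its 3 probe sets. That must hold at 236561_at, where the groups did not overlap, as for 18.1% of all tested probe sets in that direction. At 224793_s_at the groups overlapped, and the share of all tested probe sets higher in all 3 pairs was not counted. TGFB2, SMAD3 and TGFBI gave signals near or below the middle of the array in both groups.

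Of the 16 tested member probe sets, limma called 0 at an adjusted p under 0.05, as it did for 0% of all 27307 tested. The members' adjusted p ran from 0.296 to 0.877. At an unadjusted p under 0.05 there were 6 members higher and 1 lower, where the whole table gave 13.8% higher and 0.626% lower. The 6 were 4 probe sets of SMAD2 and 1 each of TGFBR1 and SMAD4, and the lower one was TGFB1. The 3 miR-9 LNA levels all exceeded the 3 scrambled levels for 7 members and all lay under them for 2, against 18.1% and 3.97% of all tested probe sets. The median difference was 0.14 over the 16 tested members and 0.06 over all tested probe sets. After quantile normalization 4 members were higher and 1 lower at an unadjusted p under 0.05, against 2.42% and 2.16%, and the median was 0.07 against 0.004. With replicate number as a block 8 were higher and 1 lower, against 21.8% and 1%. The higher count ranged from 2 (without miR-9 LNA replicate 3) to 7 (without scrambled replicate 3), and was 3 without miR-9 LNA replicate 2 or scrambled replicate 2. Without scrambled replicate 1 it was 4 and the lower count 0, against 10% and 3.13% of all tested. The lower count was also 0 without miR-9 LNA replicate 1 or 2. With an array other than scrambled replicate 1 left out, the share of all tested probe sets was not counted.

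**Figure D1:**
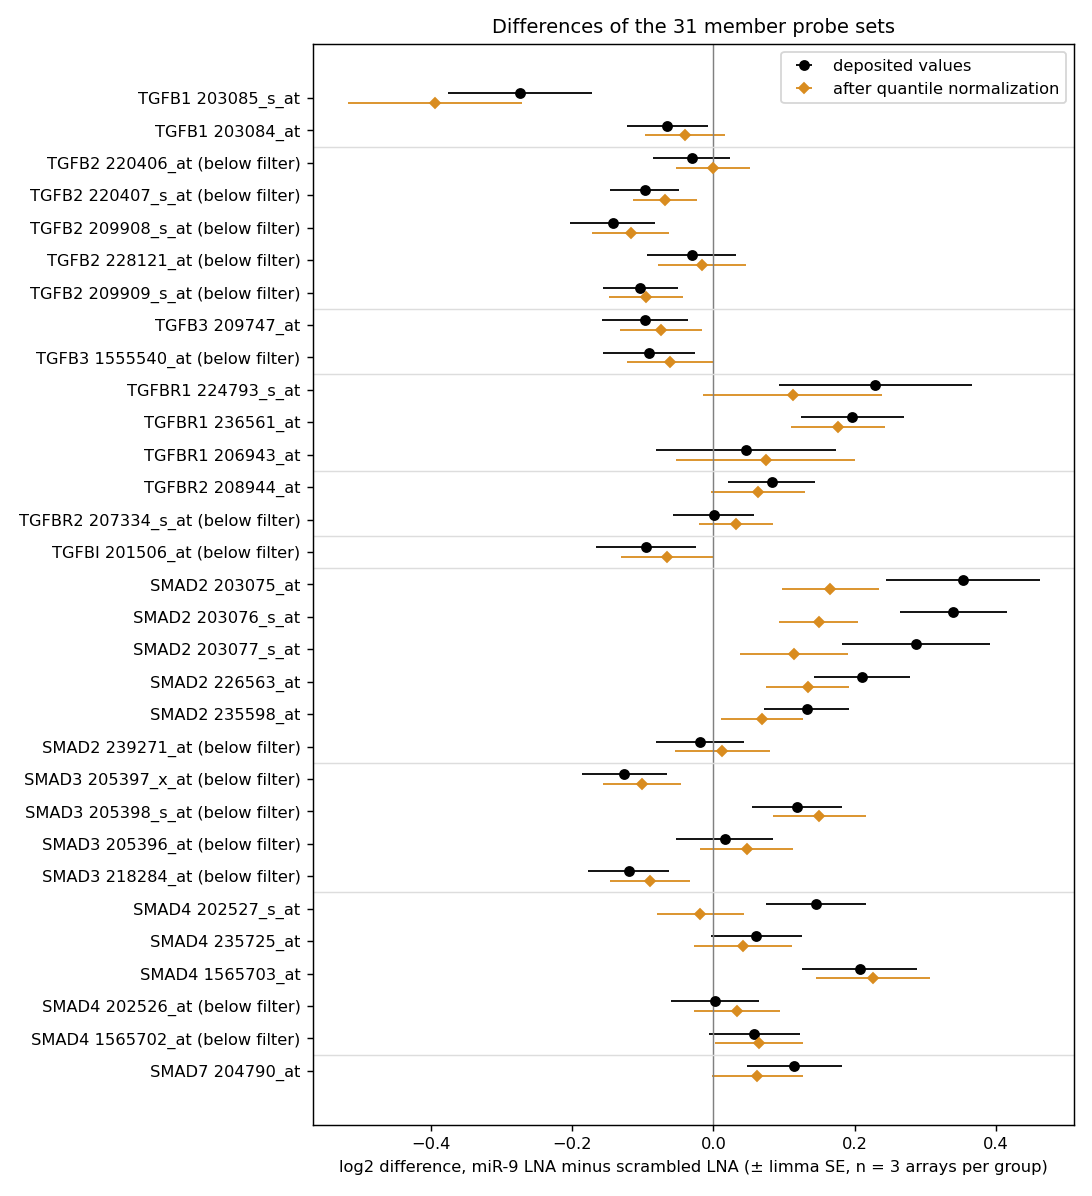
Log2 difference, miR-9 LNA minus scrambled LNA, of the 31 member probe sets, with limma standard errors (n = 3 arrays per group), in the values as deposited (black circles) and after quantile normalization (orange diamonds). The 5 tested SMAD2 probe sets lie right of 0 in both, TGFB1 203085_s_at lies farthest left in both, and SMAD4 202527_s_at and SMAD2 239271_at cross 0.

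Among the ligands, TGFB1 was read clearly by 1 of its 2 probe sets. At 203085_s_at, whose mean level exceeded that of 83.7% of all probe sets, TGFB1 stood at 8.41, 8.59 and 8.71 on miR-9 LNA replicates 1, 2 and 3, against 9.00, 8.73 and 8.81 on scrambled replicates 1, 2 and 3. All 3 miR-9 LNA arrays lay below all 3 scrambled arrays, by a narrow gap between miR-9 LNA replicate 3 and scrambled replicate 2. The difference of TGFB1 was -0.27 ± 0.10 (limma unadjusted p = 0.0290, adjusted p = 0.316), which is 1.21-fold lower. Within same-numbered pairs the TGFB1 difference was -0.59, -0.14 and -0.10, so the largest came from the pair that holds scrambled replicate 1. Without that array it was -0.20 ± 0.09 (limma unadjusted p = 0.0784).

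After quantile normalization TGFB1 203085_s_at differed by -0.39 ± 0.12 (limma unadjusted p = 0.0130, adjusted p = 0.899), and the groups still did not overlap. In the level bin that holds this probe set, 0.439% of probe sets had a smaller signed difference as deposited, and 0.476% after quantile normalization. The second TGFB1 probe set, 203084_at, lay just above the level filter at 7.12 ± 0.05 under the miR-9 LNA and 7.19 ± 0.02 under the scrambled LNA. Its difference of -0.07 ± 0.06 (limma adjusted p = 0.595) had the same sign, with overlapping groups.

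TGFB3, a ligand of the same receptors, was read at 209747_at with 7.18, 7.09 and 7.17 on the miR-9 LNA arrays, against 7.27, 7.28 and 7.19 on the scrambled arrays. The groups did not overlap, yet the nearest arrays were almost level and the signal was dim. Its difference was -0.10 ± 0.06 (limma adjusted p = 0.473), and after quantile normalization -0.07 with overlapping groups. The other TGFB3 probe set, 1555540_at, was below the filter and differed by -0.09 ± 0.06 (limma adjusted p = 0.637), or -0.04 without scrambled replicate 1.

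TGFB2 was read dimly throughout: its 5 probe sets averaged between 6.31 and 6.84, at or above 1.82% to 32.8% of probe sets. All 5 differences were below 0, from -0.14 to -0.03. At 209908_s_at TGFB2 was at 6.51, 6.49 and 6.42 on the miR-9 LNA arrays and 6.72, 6.55 and 6.57 on the scrambled arrays. The groups did not overlap at that probe set, where the difference was -0.14 ± 0.06 (limma unadjusted p = 0.0452, adjusted p = 0.455). Without scrambled replicate 1 it was -0.09 (limma unadjusted p = 0.117). Dim probe sets as a whole leaned the same way. Below the filter 31.1% of all 27306 probe sets had a difference above 0, their median was -0.03, and 10.1% had all miR-9 LNA arrays below all scrambled arrays. The 15 member probe sets below the filter had a median of -0.03 too, and 5 of them were in that last class, 3 of TGFB2 and 2 of SMAD3. After quantile normalization 2 of the 15 were, both of TGFB2, against 4.99% of all below the filter. Whether TGFB2 mRNA is present in L428 cannot be read from values this close to the bottom of the scale.

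**Figure D2:**
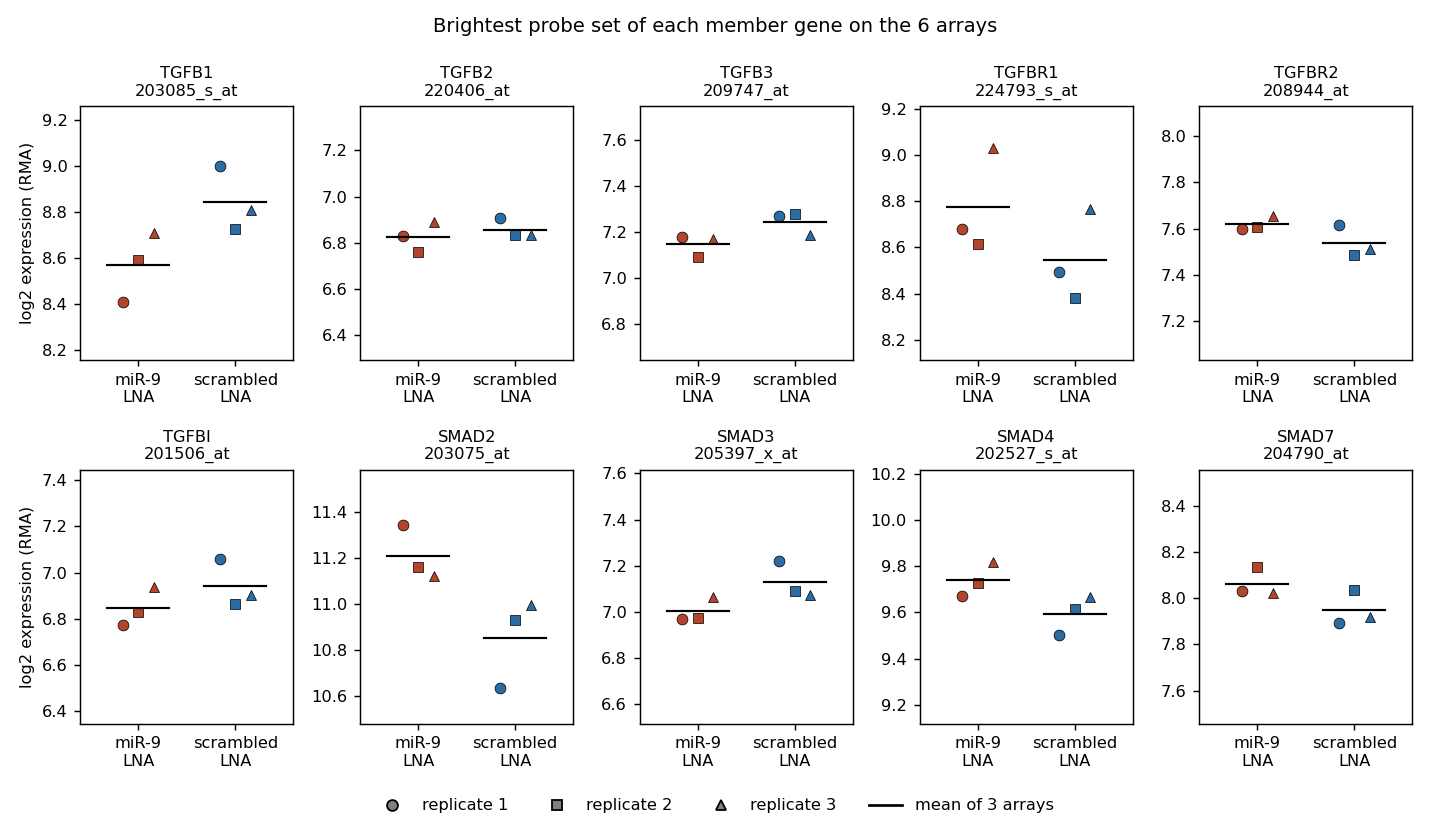
Log2 expression of the brightest probe set of each of the 10 genes on the 3 miR-9 LNA arrays (red, left) and the 3 scrambled LNA arrays (blue, right), with the mean of each group as a line and replicate numbers as symbols; every panel spans the same height in log2 units. The groups are separate for TGFB1, TGFB3, SMAD2, SMAD3 and SMAD4, by very little for each of these except SMAD2.

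All tested probe sets of both receptors had differences above 0, and none passed the threshold. TGFBR1, the type I kinase that phosphorylates SMAD2 and SMAD3, was read by 3 tested probe sets. At 224793_s_at TGFBR1 was at 8.68, 8.62 and 9.03 on miR-9 LNA replicates 1, 2 and 3, against 8.50, 8.38 and 8.77 on scrambled replicates 1, 2 and 3. Replicate 3 was the highest array in each group, so the groups overlapped although each miR-9 LNA array lay above its same-numbered partner, by 0.19, 0.24 and 0.26. The difference was 0.23 ± 0.14 without the pairing (limma unadjusted p = 0.134, adjusted p = 0.455). It was 0.10 without miR-9 LNA replicate 3, 0.15 without scrambled replicate 2 and 0.34 without scrambled replicate 3. With replicate number as a block the same difference had a standard error of 0.06 (limma unadjusted p = 0.00625, adjusted p = 0.159). After quantile normalization it was 0.11 ± 0.13, and with the block as well its unadjusted limma p was 0.110. In the level bin of 224793_s_at the median difference as deposited was 0.14. There 81.7% of probe sets had a smaller signed difference as deposited, and 84.6% after quantile normalization.

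At 236561_at TGFBR1 was at 7.68, 7.82 and 7.85 under the miR-9 LNA, against 7.50, 7.62 and 7.65 under the scrambled LNA. The groups did not overlap, and the pairs differed by 0.19, 0.21 and 0.20, close to the pair differences at 224793_s_at. The difference of 0.20 ± 0.07 (limma unadjusted p = 0.0289, adjusted p = 0.315) was 0.18 ± 0.07 after quantile normalization (limma unadjusted p = 0.0307) and 0.15 ± 0.07 without scrambled replicate 1. In its level bin, whose median difference was -0.005, 97.7% of probe sets had a smaller signed difference. The dimmest TGFBR1 probe set, 206943_at, differed by 0.05 ± 0.13 (limma adjusted p = 0.877) and turned to -0.03 without scrambled replicate 1. It too was highest on replicate 3 in both groups, at 7.39 under the miR-9 LNA and 7.26 under the scrambled LNA.

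TGFBR2, the type II kinase that binds the ligand first, stood at 7.60, 7.61 and 7.66 on the miR-9 LNA arrays and at 7.62, 7.49 and 7.51 on the scrambled arrays for probe set 208944_at. Scrambled replicate 1 lay among the miR-9 LNA arrays, and the groups overlapped. The TGFBR2 difference was 0.08 ± 0.06 (limma adjusted p = 0.540), or 0.12 ± 0.06 without scrambled replicate 1 (limma unadjusted p = 0.0703). Its other probe set, 207334_s_at, lay below the filter at 6.76 ± 0.04 under the miR-9 LNA and 6.76 ± 0.08 under the scrambled LNA.

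SMAD2 and SMAD3, the substrates of TGFBR1, differed in how many probe sets passed the filter, 5 of 6 for SMAD2 and 0 of 4 for SMAD3. SMAD2 at 203076_s_at was at 10.88, 10.87 and 10.93 on the miR-9 LNA arrays, against 10.41, 10.61 and 10.64 on the scrambled arrays. The miR-9 LNA arrays lay close together and above every scrambled array, with scrambled replicate 1 the lowest. This difference, 0.34 ± 0.08 (limma unadjusted p = 0.00246, adjusted p = 0.296), had the smallest p of the 31 member probe sets. It was 0.27 ± 0.06 without scrambled replicate 1 (limma unadjusted p = 0.00246) and 0.15 ± 0.06 after quantile normalization (limma unadjusted p = 0.0307, adjusted p = 0.899).

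The brightest SMAD2 probe set, 203075_at, was at 11.34, 11.16 and 11.12 under the miR-9 LNA, against 10.64, 10.93 and 10.99 under the scrambled LNA. The groups did not overlap, and the first pair differed by 0.70 where the second and the third differed by 0.23 and 0.13. The difference of SMAD2 203075_at was 0.35 ± 0.11 (limma unadjusted p = 0.0127, adjusted p = 0.296), 0.24 without scrambled replicate 1 and 0.17 after quantile normalization. At 203077_s_at SMAD2 was at 10.18, 10.23 and 10.30 under the miR-9 LNA and 9.74, 9.98 and 10.15 under the scrambled LNA, a difference of 0.29 ± 0.10 (limma adjusted p = 0.313). Without scrambled replicate 1 the difference at 203077_s_at was 0.18, and after quantile normalization it was 0.11 with overlapping groups.

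At 2 dimmer SMAD2 probe sets the differences were also above 0. At 226563_at the levels were 8.34, 8.25 and 8.39 under the miR-9 LNA, against 8.05, 8.11 and 8.19 under the scrambled LNA, a difference of 0.21 ± 0.07 (limma unadjusted p = 0.0162, adjusted p = 0.296). At 235598_at SMAD2 stood at 8.18, 8.10 and 8.18 under the miR-9 LNA, against 7.99, 8.07 and 8.00 under the scrambled LNA. That difference was 0.13 ± 0.06 (limma adjusted p = 0.363), and as deposited the groups did not overlap at either of these probe sets. After quantile normalization the difference was 0.13 at 226563_at (limma unadjusted p = 0.0546) and 0.07 at 235598_at (limma unadjusted p = 0.273), where the groups then overlapped. The sixth, 239271_at, was just below the filter and differed by -0.02 ± 0.06. At each of the 5 tested probe sets SMAD2 was the higher on the miR-9 LNA array of all 3 same-numbered pairs. That must hold where groups do not overlap, and as deposited 18.1% of all tested probe sets did not overlap in that direction. The SMAD2 probe sets read the same RNA on the same arrays and are not independent of each other.

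Bright probe sets were mostly higher on these arrays, and the SMAD2 values are to be read beside that. In the brightest bin, where the median difference was 0.19, 95.3% of probe sets had a difference above 0 and 34.6% had all miR-9 LNA arrays above all scrambled arrays. The share of that bin with a smaller difference than SMAD2 was 98.3% at 203075_at, 97.4% at 203076_s_at and 89.1% at 203077_s_at. After quantile normalization the same shares were 97.6%, 96.1% and 90.4%. The dimmer tested probe sets lay in the middle level bin, whose median difference was 0.06. There the share was 92.9% at 226563_at and 74.9% at 235598_at, or 89.3% and 72.1% after quantile normalization. SMAD2 groups after quantile normalization did not overlap at 3 of the 5 tested probe sets (203075_at, 203076_s_at and 226563_at). By then 4.58% of the brightest bin and 5.98% of all tested probe sets had all miR-9 LNA arrays above all scrambled arrays.

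**Figure D3:**
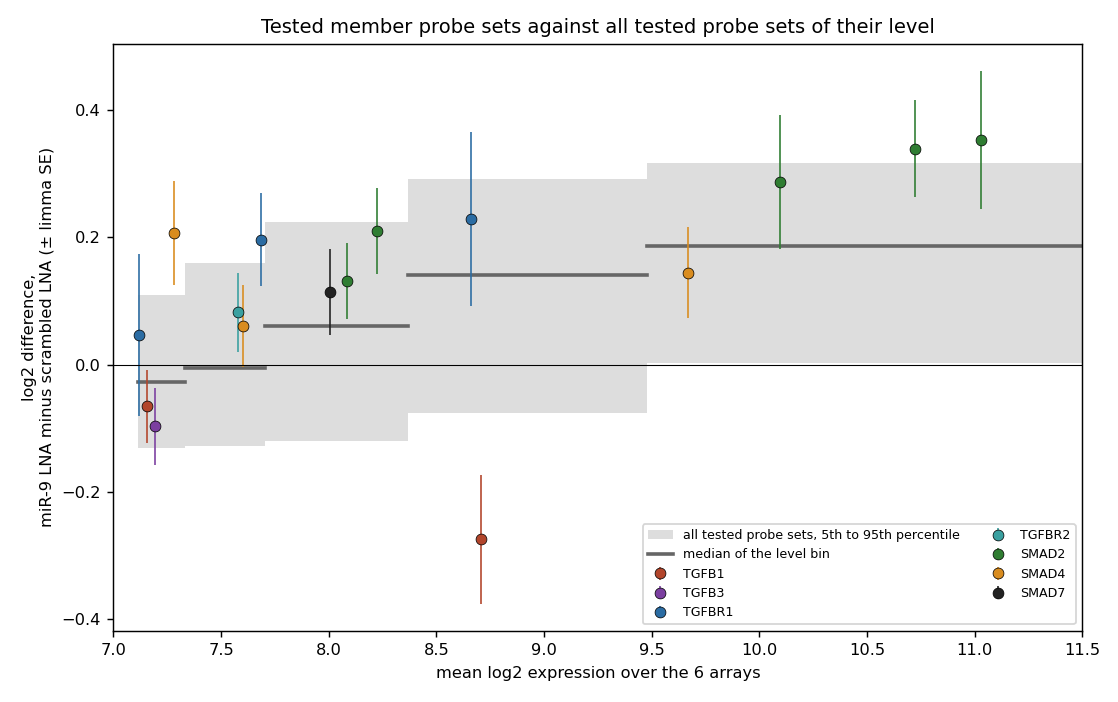
Log2 difference, miR-9 LNA minus scrambled LNA, against mean log2 expression for the 16 tested member probe sets (points, with limma standard errors), over the median (grey line) and 5th to 95th percentile (grey band) of all tested probe sets in each of 5 level bins; the brightest band goes on beyond the axis. TGFB1 203085_s_at lies below its band, and SMAD2 203075_at and 203076_s_at, TGFBR1 236561_at and SMAD4 1565703_at lie above theirs.

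SMAD3, the second receptor-regulated SMAD, averaged 6.87 to 7.07 at its 4 probe sets, all below the filter, and they did not share a direction. SMAD3 differed by -0.13 ± 0.06 at 205397_x_at and by -0.12 ± 0.06 at 218284_at, and the groups did not overlap at either. At 205398_s_at SMAD3 differed by 0.12 ± 0.06 and at 205396_at by 0.02 ± 0.07, with overlapping groups. With 1 array left out, the difference ranged from -0.16 to -0.08 at 205397_x_at and from -0.15 to -0.08 at 218284_at. At 205398_s_at it ranged from 0.09 to 0.18. The limma adjusted p of these 4 lay between 0.498 and 0.948. These dim probe sets settle no direction for SMAD3.

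SMAD4, the partner that SMAD2 and SMAD3 need in the nucleus, was read by 3 tested probe sets with differences above 0 as deposited. At the brightest, 202527_s_at, SMAD4 was at 9.67, 9.73 and 9.82 under the miR-9 LNA, against 9.50, 9.62 and 9.67 under the scrambled LNA. The lowest miR-9 LNA array and the highest scrambled array were level to the digits given, though the groups did not overlap, and every miR-9 LNA array lay above its partner. The SMAD4 difference was 0.14 ± 0.07 (limma adjusted p = 0.386), below the median of 0.19 of its level bin, and it turned to -0.02 ± 0.06 after quantile normalization. At 1565703_at, a dim probe set, SMAD4 was at 7.24, 7.45 and 7.47 under the miR-9 LNA, against 7.12, 7.15 and 7.26 under the scrambled LNA. The groups overlapped, since miR-9 LNA replicate 1 lay below scrambled replicate 3. The difference there was 0.21 ± 0.08 (limma unadjusted p = 0.0366, adjusted p = 0.327) and 0.23 ± 0.08 after quantile normalization. Beside other probe sets of their level, these SMAD4 probe sets disagreed before and after quantile normalization. The share of the level bin with a smaller signed difference was 32.5% at 202527_s_at and 99.6% at 1565703_at as deposited. After quantile normalization the shares were 35.8% and 99.6%. The third tested one, 235725_at, differed by 0.06 ± 0.06, and 202526_at and 1565702_at, below the filter, by 0.002 and 0.06.

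SMAD7, the inhibitory SMAD that TGF-beta itself induces, was read by 1 probe set, 204790_at. It was at 8.03, 8.14 and 8.02 under the miR-9 LNA, against 7.89, 8.04 and 7.92 under the scrambled LNA. Scrambled replicate 2 lay above miR-9 LNA replicates 1 and 3, so the groups overlapped. Within same-numbered pairs the differences were 0.14, 0.10 and 0.10. The SMAD7 difference was 0.11 ± 0.07 (limma adjusted p = 0.452) and 0.06 ± 0.06 after quantile normalization. In its level bin the median difference was 0.06, and 68.7% of probe sets had a smaller signed difference. After quantile normalization that share was 69.9%. TGFBI, a secreted matrix protein named for its induction by TGF-beta, was at 6.77, 6.83 and 6.94 under the miR-9 LNA, against 7.06, 6.86 and 6.90 under the scrambled LNA at 201506_at. These groups overlapped near the bottom of the scale, and the TGFBI difference was -0.10 ± 0.07 (limma adjusted p = 0.649), or -0.04 without scrambled replicate 1.

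**Figure D4:**
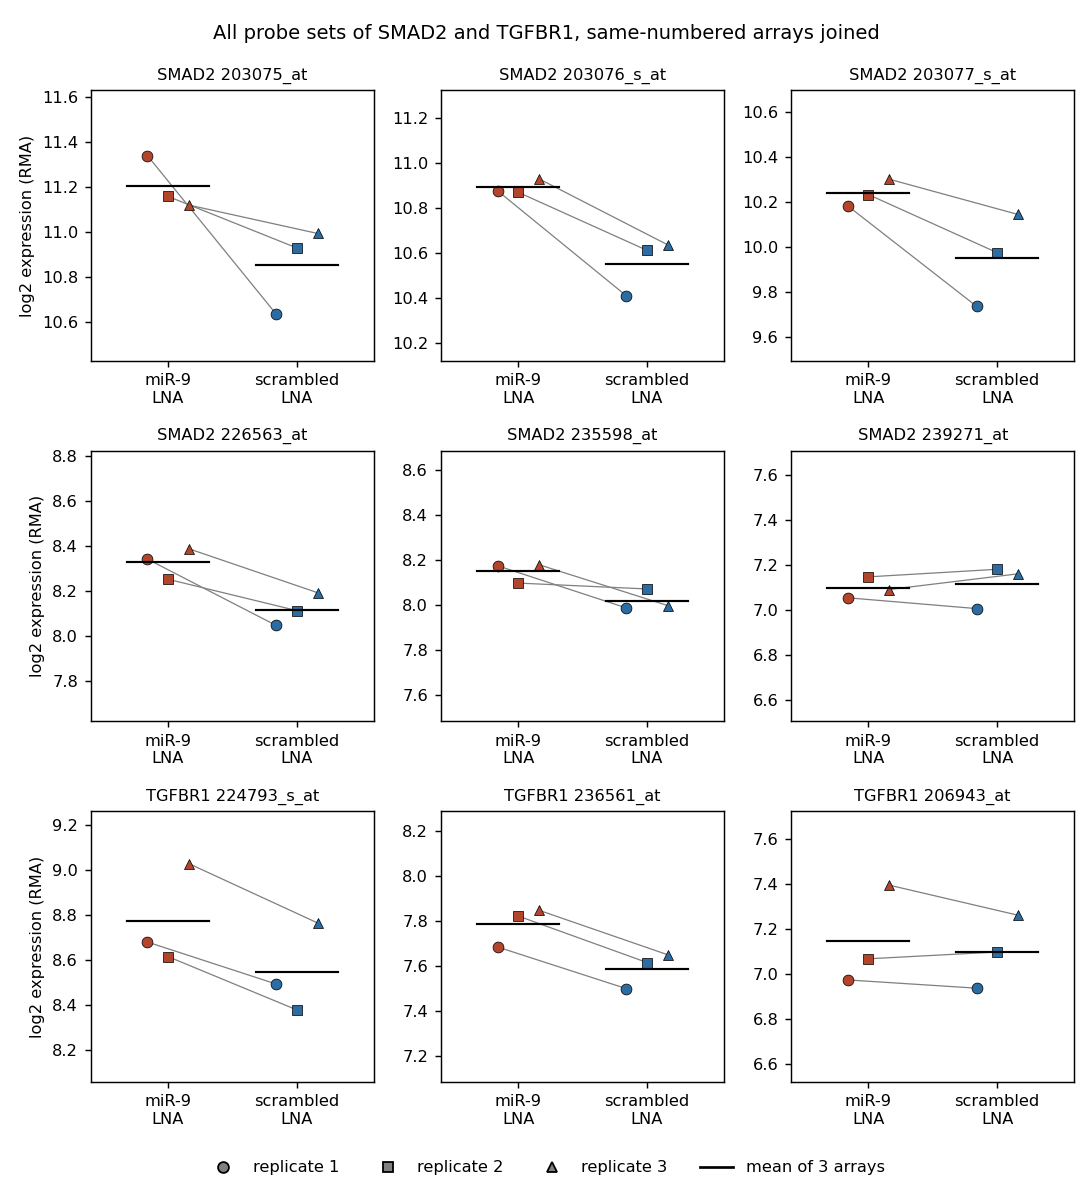
Log2 expression on each array at the 6 SMAD2 probe sets (upper rows) and the 3 TGFBR1 probe sets (bottom row), miR-9 LNA left and scrambled LNA right, with grey lines joining same-numbered arrays and black lines at group means. All 3 lines fall towards the scrambled LNA in 7 of the 9 panels, the exceptions being SMAD2 239271_at and TGFBR1 206943_at, and replicate 3 is highest in both groups of each TGFBR1 panel. All 3 lines must fall where groups do not overlap in that direction, as for 18.1% of all tested probe sets. The groups overlap at TGFBR1 224793_s_at, and the share of all tested probe sets with all 3 lines falling was not counted.

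The other genes of the pathway were described from a list of 97, set out by role and without the 10 members, of which 90 were named on the array and 69 had a tested probe set (the brightest was used). Limma called 0 of the 69 at an adjusted p under 0.05. At an unadjusted p under 0.05 there were 10 higher and 1 lower, or 14.5% and 1.45%, against 17.4% and 0.598% of 12367 genes. Their median difference was 0.10, against 0.08 over all genes. The pathway list therefore sat near the background. With replicate number as a block 16 were higher, against 25.9% of all genes, and after quantile normalization 0 were higher and 2 lower, against 1.92% and 2.34%. Leaving out 1 array gave 6 to 12 higher, with 6 without miR-9 LNA replicate 1, miR-9 LNA replicate 3 or scrambled replicate 2. Without scrambled replicate 1 there were 7 higher, against 12.9% of all genes. The share of all genes was not counted with another array left out, so those counts have no background beside them. The lower count was 0 without miR-9 LNA replicate 2, miR-9 LNA replicate 3 or scrambled replicate 2.

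By role, the positive regulators and coactivators held 6 of those 10, of 14 tested (42.9%, against 17.4% of all genes), with a median of 0.17. These 6 had mean levels of 8.73 to 12.18, in the fourth level bin and the brightest. There 24.9% and 31.2% of probe sets were higher at an unadjusted p under 0.05, with median differences of 0.14 and 0.19. Without scrambled replicate 1 the role held 3 higher of 14 (21.4%, against 12.9% of all genes) with a median of 0.12. With replicate number as a block it held 8 (57.1%, against 25.9%). After quantile normalization 0 were higher and 1 lower, against 1.92% and 2.34% of all genes, with a median of 0.01. They were led by USP9X, which removes ubiquitin from SMAD4, at 11.34 ± 0.13 under the miR-9 LNA and 11.06 ± 0.10 under the scrambled LNA, a difference of 0.28 ± 0.09 (limma adjusted p = 0.296). TFDP1, a partner of E2F factors, differed by 0.25 ± 0.08, and MAP3K7, the TGF-beta-activated kinase, by 0.18 ± 0.06. After quantile normalization USP9X, TFDP1 and MAP3K7 differed by 0.10, 0.05 and 0.02. Of 17 negative regulators 2 were higher at an unadjusted p under 0.05 (11.8%, against 17.4% of all genes), both bright. They were TRIM33, a ubiquitin ligase acting on SMAD4, which differed by 0.22 ± 0.07, and SKIL, a SMAD corepressor, which differed by 0.19 ± 0.07. STRAP, which helps SMAD7 hold the receptor, differed by 0.20 ± 0.09. These became 0.04, 0.004 and 0.03 after quantile normalization.

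The wider receptors numbered 10 tested, with a median of 0.01, against 0.08 over all genes. At an unadjusted p under 0.05 there was 1 higher (10%, against 17.4% of all genes). That 1 was ACVR1, a type I receptor for bone morphogenetic proteins, at 9.08 ± 0.07 under the miR-9 LNA and 8.81 ± 0.08 under the scrambled LNA. Its groups did not overlap, and its difference was 0.26 ± 0.07 (limma unadjusted p = 0.00583, adjusted p = 0.296), or 0.13 after quantile normalization (limma unadjusted p = 0.130). BMPR1B, a receptor of the same class, differed by 0.16 ± 0.08, or 0.03 after quantile normalization, and ACVRL1 by -0.11 ± 0.08. SMAD1, a SMAD of the bone morphogenetic protein branch, differed by 0.25 ± 0.11 (limma adjusted p = 0.362), and SMAD5 of that branch by 0.15 ± 0.15, or -0.0077 without scrambled replicate 1.

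Among 9 genes of latency and activation, ITGAV, the integrin chain that binds latent TGF-beta, differed by 0.26 ± 0.11 (limma unadjusted p = 0.0425, adjusted p = 0.337). Its difference was 0.07 after quantile normalization (limma unadjusted p = 0.437) and 0.19 without scrambled replicate 1 (limma unadjusted p = 0.118). FURIN, the protease that cuts the TGF-beta precursor, differed by -0.11 ± 0.07, and the latent binding protein LTBP1 by 0.11 ± 0.07. The 5 wider ligands had a median of -0.01, against 0.08 over all genes, and the 1 lower gene of the list was among them. It was NODAL, a dim signal at 7.19 ± 0.04 under the miR-9 LNA and 7.35 ± 0.03 under the scrambled LNA, a difference of -0.15 ± 0.06 (limma adjusted p = 0.315). BMP8B differed by -0.07 ± 0.07 and BMP7 by 0.03 ± 0.06.

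Of the 12 tested targets of the pathway, 0 reached an unadjusted p under 0.05 in limma, where 17.4% of all genes were higher and 0.598% lower. The median of the 12 was 0.09, against 0.08 over all genes. IKZF2, a transcription factor, differed by 0.17 ± 0.11, RGS2, a regulator of G protein signalling, by 0.26 ± 0.18, and the repressor BHLHE40 by 0.14 ± 0.11. Without scrambled replicate 1 the differences of RGS2 and BHLHE40 were 0.03 and 0.05, and the median of the 12 was 0.005 against 0.06 over all genes. BHLHE40 differed by -0.03 after quantile normalization.

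**Figure D5:**
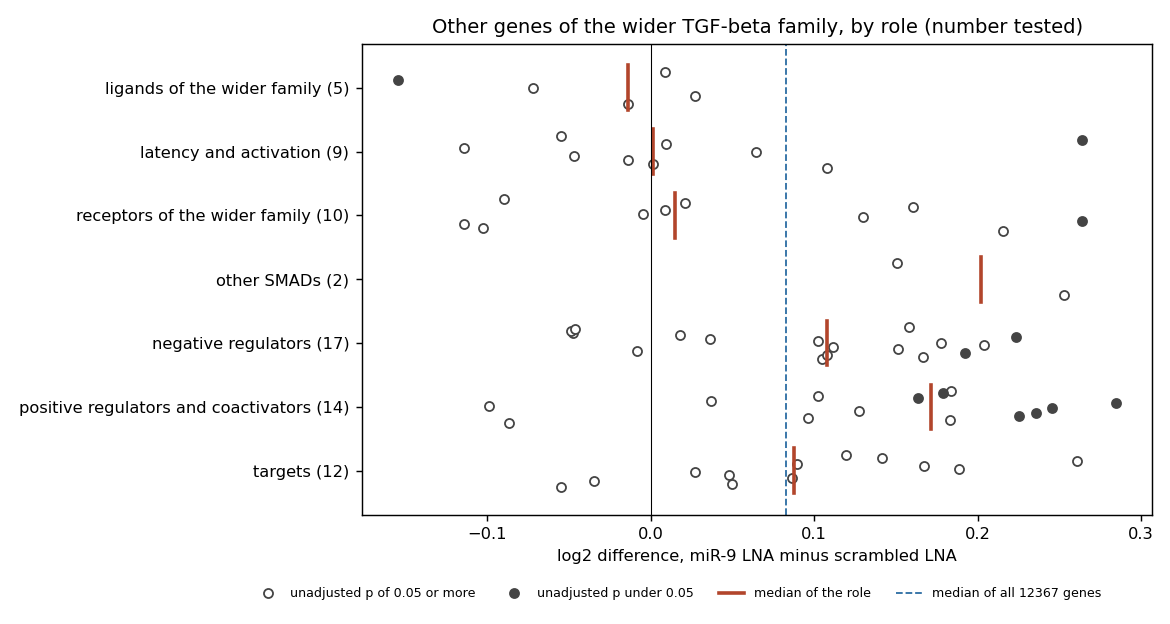
Log2 difference, miR-9 LNA minus scrambled LNA, of 69 other pathway genes (brightest tested probe set each), grouped by role with the number tested in brackets; filled points have an unadjusted limma p under 0.05, red bars are role medians and the dashed line is the median of all 12367 genes. Filled points number 6 among the positive regulators and coactivators (3 higher without scrambled replicate 1) and 0 among the targets. Over all genes 17.4% were higher at that p as deposited, and 12.9% without scrambled replicate 1.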

How the data were processed

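Total RNA of 6 L428 samples, 3 per LNA, was hybridized to HG-U133 Plus 2.0 arrays, and the authors deposited log2 values. The submitters' processing notes name affy and RMA. Versions, and whether an offset was added (the lowest values lie near 6), are not given in the sources used here. From the 54675 probe sets, 62 controls were left out and 27307 at or above a mean of 7.11 were tested with limma 3.58.1 in R 4.3.3 (lmFit, eBayes, two-sided, Benjamini-Hochberg over all tested, threshold 0.05). Names came from the platform annotation, with 41091 probe sets of 1 symbol. Members, pathway roles and markers were chosen with earlier results of these data known. All member probe sets are named, and of each pathway role the 3 genes of smallest p.

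The replicate block, by the replicate numbers in the labels, was fitted as an alternative. Same-numbered arrays deviated together from their group means (r = 0.231, 0.193 and 0.634 across probe sets), against -0.429 to 0.168 for other pairs. The labels do not say what a number shares, so a meaning of the pairs rests on these correlations alone. Other alternatives were no filter, quantile normalization (limma, all probe sets), a trended variance, each array left out and, for pathway genes, the mean of a gene's tested probe sets. The fit was also run on simulated data with independent noise at each probe set. Those data held neither the shared shift nor the link between same-numbered arrays, so the run cannot speak to either. Figures used matplotlib 3.10.9.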

Additional observations from a re-analysis of the deposited data

How the results depend on the processing

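In all settings run, 0 of the 31 member probe sets passed the adjusted threshold. The smallest adjusted p of any was 0.159, with the replicate block, which changed no call. Members lower at an unadjusted p under 0.05 numbered 2 with no level filter, where 31 rather than 16 enter (1.89% of all probe sets), and 0 to 1 when 1 array was left out; members higher numbered 2 to 7. Members without overlap numbered 4 higher and 1 lower after quantile normalization, with or without the replicate block (the combination was added after seeing the data), against 5.98% and 5.73% of all tested, and 7 lower with no level filter, against 7.05% of all probe sets. Pathway genes higher at an unadjusted p under 0.05 numbered 0 after quantile normalization, 4 with quantile normalization and the replicate block, 16 with the replicate block, 3 with a trended variance, 6 for the mean of a gene's probe sets and 6 to 12 with 1 array left out. Pathway genes lower numbered 2 after quantile normalization, with or without the replicate block, and 0 to 1 with 1 array left out. Shares over all probe sets or genes were not counted with a trended variance or with arrays other than scrambled replicate 1 left out. Over all genes they were also not counted for the mean of a gene's probe sets or quantile normalization with the replicate block.

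Quantile normalization, with or without the replicate block, turned SMAD2 239271_at to 0.013, SMAD4 202527_s_at to -0.018 and BHLHE40 to -0.032. Leaving out 1 array turned the sign of differences close to 0. The range was -0.073 to 0.014 for SMAD2 239271_at, -0.042 to 0.062 for SMAD3 205396_at, -0.033 to 0.058 for SMAD4 202526_at and -0.0077 to 0.28 for SMAD5. It was -0.064 to 0.0022 for TGFB2 220406_at, -0.073 to 0.030 for TGFB2 228121_at, -0.078 to 0.13 for TGFBR1 206943_at and -0.033 to 0.044 for TGFBR2 207334_s_at. The cause was not tested. The other named probe sets kept their direction in all settings run. Dim signal limits TGFB2, SMAD3 and TGFBI.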
